A study of Mus musculus with 6 samples.

Results

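Dorsal root ganglion cells of mice that lack the gene Ttpa were compared between a vitamin E deficient diet and a vitamin E supplemented diet. The comparison used every cell of the 4 Ttpa-/- mice, 14811 of the 21685 cells in the study. Mice 654 (female) and 657 (male) had the deficient diet and gave 4098 and 2858 cells. Mice 670 (male) and 671 (female) had the supplemented diet and gave 4068 and 3787 cells. All 4 were 6 months old and carried the same genotype, so diet was the only labelled difference between the groups. Ttpa+/+ mice 698 (female) and 699 (male), 5 months old and on a basal diet, gave the other 6874 cells and entered the fits as a further group. Their genotype, diet and age all differed from those of the Ttpa-/- mice, and their values are given for reference. Each sample was 1 mouse, so each diet group had n = 2.

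The liver passes vitamin E into the circulation with the help of the alpha-tocopherol transfer protein, the product of Ttpa. Without it, plasma vitamin E depends on the dietary supply, and sensory neurons of the dorsal root ganglion are among the cells known to suffer in inherited vitamin E deficiency. Vitamin E is a lipid-soluble chain-breaking antioxidant of membranes, and Gpx4, the glutathione peroxidase that reduces lipid peroxides, acts on the same chemistry. The comparison addresses what the dietary supply changes in ganglion cells of 1 genotype.

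The cells were measured by droplet 3' sequencing, which counts unique molecular identifiers (UMIs), one for each captured transcript. Per mouse, 12538785 to 19383933 UMIs were counted. The median UMIs per cell were 2856 and 4959 in the deficient mice and 2500 and 3478 in the supplemented mice, so each diet group held 1 shallower and 1 deeper library. The median mitochondrial share was 2.68% and 4.15% in the deficient mice and 2.64% and 3.56% in the supplemented mice. Of 10 pan-neuronal genes, the median cell of each mouse had 7 to 9. Barcodes later gated by markers as fibroblast-like, macrophage-like and mural-like had medians of 7, 8 and 9. The count therefore does not separate neurons from other cells and does not check their label as neurons. Any 2 libraries shared 9 to 23 cell barcodes. After removal of 27 cells with few genes or many mitochondrial UMIs and of 634 likely doublets, 21024 cells were kept, 14354 of them in the Ttpa-/- mice.

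The targeted gene itself was at the edge of detection in every mouse. Ttpa (ENSMUSG00000073988, chr4:20007938-20030785 of mm10) had 4 and 5 UMIs in the deficient mice, 1 and 4 in the supplemented mice and 0 in both wild type mice. A count of 0 allows up to 3 counts, which is 0.177 and 0.161 per 1000000 UMIs in the wild type mice. A 3' count can lie outside the deleted part of the gene, so these UMIs check neither the genotype nor the labels.

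Over all kept cells, summed per mouse, no gene passed the test between the diets. Of 13381 genes tested with edgeR's quasi-likelihood test, 0 had an adjusted p under 0.05 (0% of genes). An unadjusted p under 0.05 was found for 339 genes, where 669 would be expected by chance. DESeq2 and limma-voom also called 0 genes. Without the filter on low counts, edgeR called 26 genes, 5 higher and 21 lower, and 7 of them were satellite glia genes. Among the genes with the smallest p, those lower on the deficient diet were led by genes of satellite glia, the cells that wrap sensory neuron cell bodies. Those higher included Tfrc, the transferrin receptor that takes up iron, and Socs1, an inhibitor of cytokine signalling. Levels below are CPM, which are counts per 1000000 of a mouse's summed UMIs after scaling by edgeR. Fold changes are log2, deficient minus supplemented, with their standard error.

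Apoe, the apolipoprotein with which glia export lipid, had the smallest p among genes of moderate or high level. Apoe (chr7:19696109-19699188) was at 240 and 202 CPM in the deficient mice, at 326 and 474 CPM in the supplemented mice and at 260 and 203 CPM in the wild type mice. Both deficient mice lay below both supplemented mice, and the deficient mice overlapped the wild type mice. The difference was -0.85 ± 0.19, with an unadjusted p of 0.00075 from edgeR and an adjusted p of 0.9998. Fabp7, a fatty acid binding protein of satellite glia (chr10:57784881-57788450), was at 89.1 and 84.5 CPM against 114 and 196 CPM, a difference of -0.84 ± 0.26. In both genes the supplemented mice were the higher ones with no overlap. Neither passed over all genes, and without the filter on low counts both did at nearly the same difference, each with an edgeR adjusted p of 1.996e-05. With the filter the adjusted p of both was 0.9998, so these passes came with the filter setting and not with a larger difference. The unfiltered fit also called Car8, at -2.60, a gene whose difference was 0.060 without mouse 670. Passes in that fit, here and below, carry this limit, and why the p changed was not tested.

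The whole list of satellite glia genes lay in the same direction. Of 23 genes, 22 were measured and all 22 had a lower fitted value on the deficient diet, with a median of -0.57. The median of all 13381 genes was -0.0042, and 6824 of them were lower. In 18 of the 22, both deficient mice were below both supplemented mice, where 17.1% of all genes had that order. None of the 22 was called after adjustment over all genes, and 8 had an unadjusted p under 0.05. Sox10, the transcription factor of the glial lineage, showed the largest difference of the list, at 2.303 and 0.859 CPM against 4.85 and 3.07 CPM, and was among the 7 called without the filter on low counts (edgeR adjusted p 0.0174). At the other end, Glul, the glutamine synthetase that recycles glutamate, was nearly level, at 138 and 139 CPM against 142 and 153 CPM. Without deficient mouse 657, the list's median was -0.28 and 21 of 22 genes were lower, and in the other fits with 1 Ttpa-/- mouse left out it ranged from -0.76 to -0.43. S100b, also a marker of myelinated neurons, belongs to this list, and so do the widely expressed metallothioneins Mt1, Mt2 and Mt3.

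**Figure D1:**
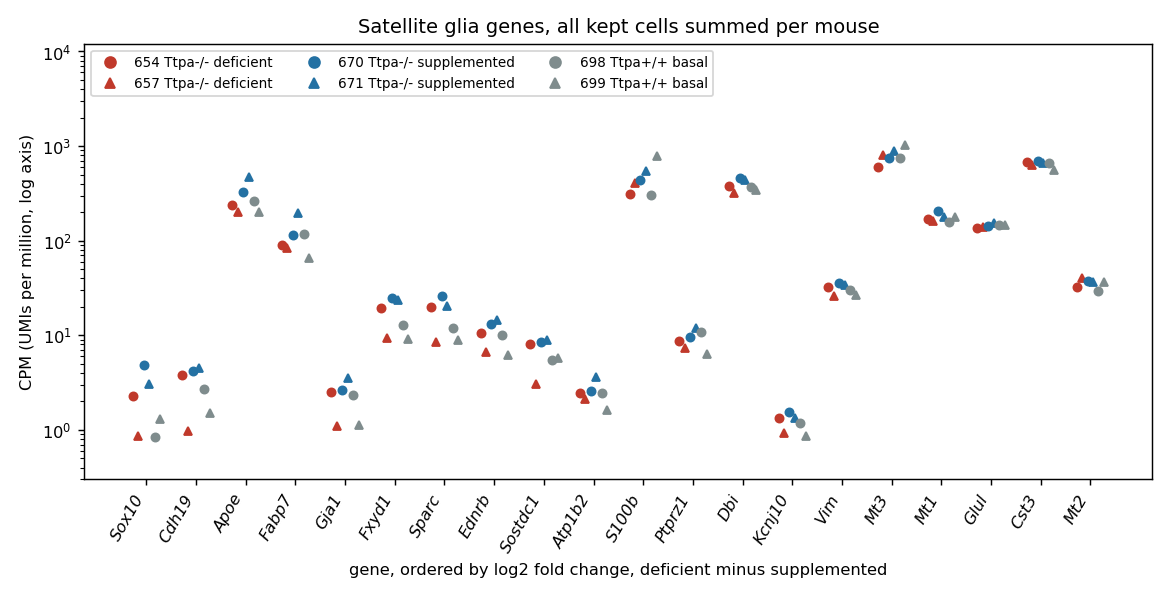
Level in CPM (log axis) of 20 measured satellite glia genes in each of the 6 mice, over all kept cells, ordered by fold change. Red marks are the deficient mice, blue the supplemented mice and grey the wild type mice. In 17 of these genes both red marks lie below both blue marks, while the grey marks often lie at the level of the red ones.

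Other genes among those with the smallest p and a lower level on the deficient diet included further glial genes. Gpm6b, a membrane glycoprotein of glia and neurons, was at 34.8 and 24.6 CPM against 46.5 and 54.5 CPM. Abca8a, a lipid transporter, was at 18.2 and 13.1 CPM against 20.8 and 29.2 CPM. Qk, an RNA-binding protein of myelinating glia, was at 27.3 and 19.4 CPM against 31.7 and 38.4 CPM. None of the 3 passed the test, and in each the supplemented mice were both higher. Without the filter on low counts Gpm6b (edgeR adjusted p 0.00145) and Abca8a (0.0347) passed, and Qk did not. Id3, an inhibitor of DNA binding, was at 44.8 and 45.1 CPM against 60.2 and 60.4 CPM, so its replicates agreed more closely than its groups. Fxyd1, Rgcc, Pogz and Tnrc18 completed the 10 lower genes, with differences of -0.78, -0.58, -0.44 and -0.47, and of these 4 Fxyd1 passed without that filter (0.00902).

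Glial transcripts were also counted in barcodes that a marker gate assigned to neuron types. The gate compared small sets of marker genes of known ganglion cell types in each cell and gave a class only where one set led by a fixed margin. It named neurofilament-rich (NF-like) neurons, peptidergic (PEP-like) nociceptors, 3 non-peptidergic classes (NP1-like to NP3-like), Th-positive (TH-like) low-threshold mechanoreceptors, satellite-glia-like cells and a few others, and left 25.1% of cells ungated. Markers held back from the gate were higher in their own class for 7 of 7 NF, 5 of 7 PEP, 6 of 6 NP1, 2 of 3 NP2, 4 of 4 NP3, 3 of 3 TH and 5 of 5 satellite glia markers.

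In NP1-like neurons, the Mrgprd-type nociceptors, Fabp7 was the only gene called. Fabp7 is also a gate marker of satellite-glia-like cells, so barcodes rich in it were less likely to be gated as neurons. Its level in the neuron classes is therefore partly set by the gate, in both diets. In NP1-like neurons Fabp7 had 108 and 63 UMIs in the deficient mice and 159 and 159 UMIs in the supplemented mice. As a level it was 32.3 and 18.6 CPM against 56.9 and 56.7 CPM, with 27.2 and 25.7 CPM in the wild type mice. The deficient mice lay below the supplemented mice and beside the wild type mice. Fabp7 fell by 1.16 on the log2 scale (standard error 0.19, edgeR adjusted p 0.0281), 1 call among 9556 genes (0.0105%). The UMIs were spread over cells, with at most 16 in 1 cell, and 10.8% and 9.78% of NP1-like cells had at least 1 UMI in the deficient mice against 18.2% and 18.7% in the supplemented mice. In satellite-glia-like barcodes of these 4 mice that share was 90.2% to 97.2%, so neuron barcodes held the transcript at a low level. The shares were not thinned to equal depth, and the median NP1-like cell had 5317 and 10791 UMIs in the deficient mice against 4934 and 7182 UMIs in the supplemented mice. The call ended without mouse 657 (adjusted p 0.999), without mouse 671 (0.181), with DESeq2 (0.280), with only the Ttpa-/- mice in the fit (0.0728), with thinned sums (0.166), without the filter on low counts (0.918) and with a stricter gate (0.650).

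Fabp7 and Apoe were lower on the deficient diet in most other neuron classes, without passing the test. Apoe is, like Fabp7, a gate marker of satellite-glia-like cells, so its level in neuron classes is also partly set by the gate. In NP1-like neurons, Apoe was at 92.4 and 48.2 CPM against 135 and 132 CPM, a difference of -0.93 ± 0.18 with an edgeR adjusted p of 0.144. In NP2-like neurons, the Mrgpra3-type itch neurons, Fabp7 was at 39.4 and 39.6 CPM against 68.4 and 101 CPM, and Apoe at 165 and 107 CPM against 241 and 216 CPM. In PEP-like nociceptors, Apoe was at 186 and 88.3 CPM against 227 and 211 CPM. Both deficient mice were the lower ones in each of these 4 comparisons, an order that 18.3% of all genes had in NP1-like, 15.3% in NP2-like and 15.8% in PEP-like neurons. Without mouse 654, Apoe passed in NP1-like (edgeR adjusted p 0.00145) and PEP-like neurons (0.00445), and with sex as a term it passed in NP1-like neurons (0.00257). In NP2-like neurons Fabp7 passed without wild type mouse 698 (0.0241) or 699 (0.0262), and Apoe without mouse 699 (0.0473). In NF-like neurons, Fabp7 was at 34.6 and 21.0 CPM against 18.5 and 49.5 CPM, and in TH-like neurons at 77.7 and 73.0 CPM against 72.6 and 153 CPM. In those 2 classes the groups overlapped.

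**Figure D2:**
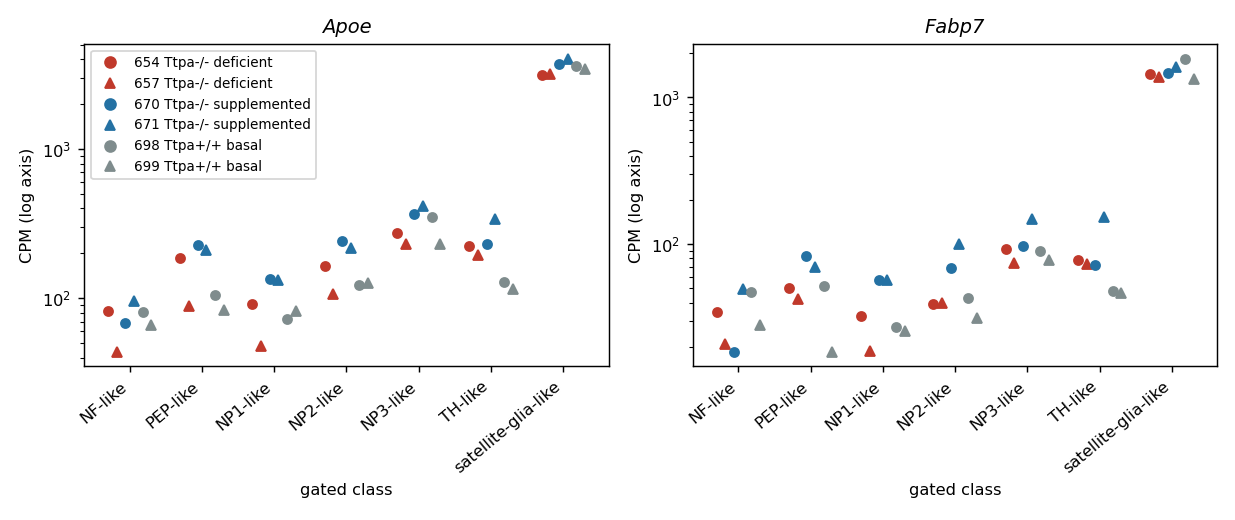
CPM (log axis) of Apoe and Fabp7 in each mouse, for 6 gated neuron classes and the satellite-glia-like class. Red marks are the deficient mice, blue the supplemented mice and grey the wild type mice. In NP1-like neurons both genes are lower in both deficient mice, and in the satellite-glia-like class Apoe lies between 3111 and 4032 CPM in the 4 Ttpa-/- mice.

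Over the satellite glia list, the neuron classes again lay mostly below 0. Some list members, Fabp7 and Apoe among them, are gate markers, so the gate partly sets their level in these classes. The numbers of measured genes that were lower were 15 of 16 in NP1-like (median -0.44), 15 of 16 in NP3-like (median -0.59) and 16 of 16 in TH-like neurons (median -0.42). They were 11 of 15 in NF-like (median -0.27), 12 of 16 in PEP-like (median -0.20) and 8 of 11 in NP2-like neurons (median -0.17). In these 6 classes the median of all genes was within 0.01 of 0. Both deficient mice were below both supplemented mice in 10 of 16 genes in NP3-like neurons, the Sst- and Nppb-expressing itch neurons, where 14.5% of all genes had that order. The count was 6 of 16 in NP1-like (18.3% of all genes), 6 of 16 in TH-like (15.5%), 5 of 15 in NF-like (14.8%) and 4 of 11 in NP2-like neurons (15.3%). In PEP-like neurons it was 3 of 16, near the 15.8% of all genes. Fabp7 in NP1-like neurons was the only called member. Set against all other gated neurons of the same mice, its diet difference in NP1-like neurons differed by -0.72 ± 0.22, with an adjusted p of 1 for the difference between classes.

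Inside the satellite-glia-like barcodes themselves the pattern was weaker. Apoe was at 3111 and 3194 CPM in the deficient mice against 3731 and 4032 CPM in the supplemented mice, a difference of -0.30 ± 0.13. Fabp7 was at 1437 and 1386 CPM against 1467 and 1615 CPM, a difference of -0.13 ± 0.16. Of 19 measured satellite glia genes, 11 were lower and 8 higher, with a median of -0.10. Some of these genes define the gate, so their level inside it is partly fixed by it. Of 5706 genes tested in this class 0 were called by edgeR, DESeq2 or limma-voom. From edgeR 229 had an unadjusted p under 0.05, where 285 would be expected by chance. These barcodes still held a median of 7 to 8 of the 10 pan-neuronal genes, so they are barcodes in which glial transcripts lead, not shown to be glia alone. The long non-coding RNA Malat1 had the smallest p there, at 12243 and 6841 CPM against 17317 and 12827 CPM, a difference of -0.66 with an adjusted p of 0.703. Malat1 passed in 6 of the 17 other fits of this class, among them those without mouse 654 (edgeR adjusted p 6.53e-08) or 671 (1.21e-06), without the filter on low counts (0.00646) and with the stricter gate (0.0365). It was also called lower in at least 1 such fit of NF-like, NP1-like, NP3-like and Pvalb-expressing NF-like neurons.

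Fewer barcodes were satellite-glia-like in the deficient mice. Their share was 3.36% (exact 95% interval 2.82% to 3.97%) in mouse 654 and 3.87% (3.18% to 4.65%) in mouse 657. It was 5.01% (4.35% to 5.74%) in mouse 670 and 8.50% (7.62% to 9.45%) in mouse 671. In the wild type mice it was 5.13% and 2.76%. The group means were 3.62% ± 0.36 (SD, n = 2) and 6.75% ± 2.47 (SD, n = 2), with a two-sided exact permutation p of 0.333, the smallest that 2 mice against 2 allow. With every cell thinned to 1500 UMIs, which left out shallower cells, the shares were 2.24% and 4.23% against 3.28% and 9.17% and overlapped. The 10 satellite glia markers of the gate and its check, all measured and none at 0, were lower 10 of 10 times over all cells. Apoe, Fabp7, Sox10 and Glul among them also belong to the satellite glia list, and the gate markers define the share. This count is therefore not independent of the list or of the share. The summed level of the 10 markers was 785 to 930 CPM in the deficient mice and 1159 to 1355 CPM in the supplemented mice. With only gated neurons kept, 20 of 21 satellite glia genes were still lower, with a median of -0.50, though some of these genes define the gate. In cells summed per mouse, fewer cells of a type and less RNA per cell cannot be told apart, and how much of the list's difference came with the share of glial barcodes was not tested.

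Markers of other non-neuronal cells also differed between mice. Fibroblast markers were lower for 6 of 7 measured genes, with a summed level of 17.01 to 38.6 CPM on the deficient and 30.3 to 58.6 CPM on the supplemented diet. Macrophage markers were lower for 7 of 7, at 2.35 to 13.9 CPM against 5.59 to 14.6 CPM. Of the 12 Schwann cell markers, 10 were measured and 8 were lower, at 1262 to 1319 CPM against 1249 to 1311 CPM. The pan-neuronal genes split evenly, with 7 of 14 higher, at 12594 to 13926 CPM against 12621 to 12726 CPM. Their part in the glial result was not tested.

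The shares of the neuron classes differed by no more than 2 mice a group can resolve. NF-like cells were 9.40% and 12.6% of kept cells in the deficient mice and 12.8% and 13.8% in the supplemented mice, without overlap. Counted among gated neurons only, they were 13.9% and 16.6% against 21.0% and 21.2%. All 16 NF markers were lower over all cells, with a median of -0.32, and their summed level overlapped, at 3046 and 3949 CPM against 3688 and 4187 CPM. The differences in mean share were 3.45 percentage points for PEP-like, 3.55 for TH-like, 2.00 for NP3-like, 1.06 for NP1-like and 1.03 for NP2-like cells, all higher on the deficient diet. In these 5 classes the groups overlapped. With 1 Ttpa-/- mouse left out, the difference ranged from 0.50 to 6.402 points for PEP-like, 0.92 to 6.17 for TH-like, 0.23 to 3.77 for NP3-like, 0.016 to 2.04 for NP2-like and -1.08 to 3.20 for NP1-like cells. The NP1-like difference turned without mouse 654 (-1.08) or 671 (-0.58) and among gated neurons only (-0.78). That of NF-like cells ranged from -3.91 to -0.66 points. Over the 11 classes compared, no permutation p was below 0.333, and every adjusted p was 0.734 or higher.

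**Figure D3:**
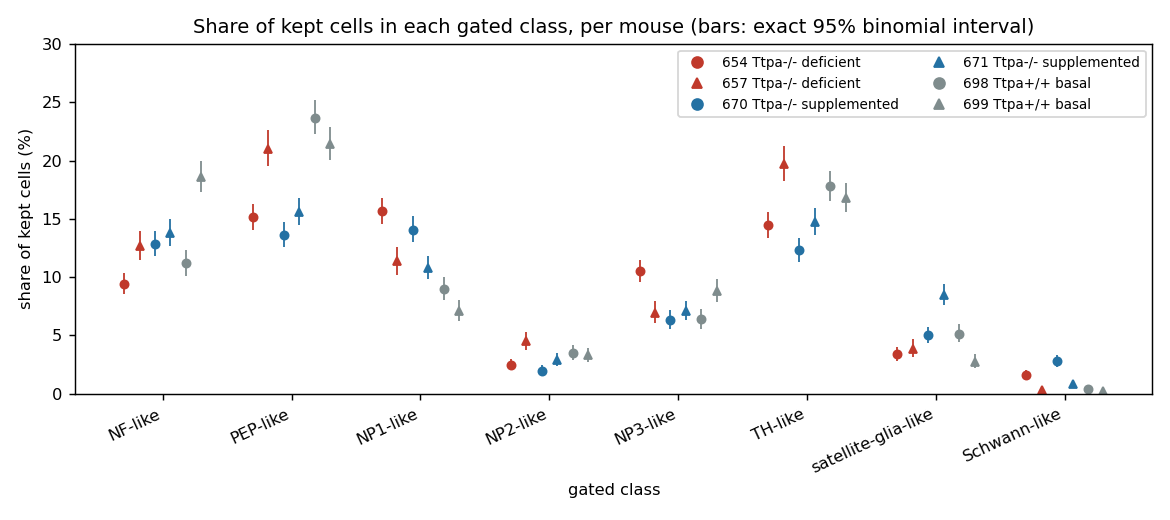
Share of kept cells in 8 gated classes for each mouse, with exact 95% binomial intervals that cover counting error only. Red marks are the deficient mice, blue the supplemented mice and grey the wild type mice. NF-like and satellite-glia-like shares are lower in both deficient mice, and the other 6 classes overlap between the diets.

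Genes that handle vitamin E and its lipoproteins showed no call. Of 16 measured genes of uptake and transport, 5 were higher and 11 lower on the deficient diet, with a median of -0.14. Pltp, the phospholipid transfer protein, was the most shifted upward, at 5.13 and 4.47 CPM against 3.40 and 3.5 CPM. Npc2, which moves cholesterol out of lysosomes, was at 190 and 204 CPM against 183 and 175 CPM. Scarb1, a lipoprotein receptor that takes up vitamin E, was at 2.15 and 2.12 CPM against 2.91 and 3.316 CPM. Abcg1, a sterol exporter, was at 19.3 and 18.1 CPM against 20.4 and 27.0 CPM. In these 4 genes the groups did not overlap, and none passed the test. Over the whole list, both deficient mice were above in 3 of 16 genes and below in 4 of 16, against 16.8% and 17.1% of all genes. Apoe, described above, had the smallest p among the lower members of this list. It also belongs to the satellite glia list, so the lists are not independent. Ttpal, a relative of Ttpa in the same lipid-binding family, was at 20.9 and 21.4 CPM against 20.5 and 19.1 CPM, a difference of 0.10 ± 0.14.

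Antioxidant enzymes were mostly slightly higher on the deficient diet, and none was called. Of 28 measured genes of the glutathione and thioredoxin systems, 23 were higher, with a median of 0.094, and 13 had both deficient mice above both supplemented mice, where 16.8% of all genes had that order. Prdx6, a peroxiredoxin that repairs oxidised phospholipids, was at 95.5 and 89.3 CPM against 82.6 and 74.8 CPM, a difference of 0.23 ± 0.13. Prdx2, a cytosolic peroxiredoxin, was at 692 and 696 CPM against 661 and 584 CPM. Gpx4 was at 987 and 1126 CPM against 981 and 986 CPM, a difference of 0.10 ± 0.14. No member of the list had an unadjusted p under 0.05. Sod3, the extracellular superoxide dismutase, overlapped, at 1.34 and 0.573 CPM against 1.29 and 1.84 CPM. Without mouse 657, 19 of 28 were higher, with a median of 0.063.

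Among iron handling genes and targets of the antioxidant regulator NRF2, Tfrc had the smallest p. Tfrc (chr16:32608920-32632794) was at 67.9 and 65.2 CPM in the deficient mice and at 52.6 and 47.4 CPM in the supplemented mice, with 57.1 and 61.4 CPM in the wild type mice. Both deficient mice were above all 4 others. The difference was 0.41 ± 0.13 over all cells, with an edgeR adjusted p of 0.9998. It was 0.57 ± 0.16 in NF-like neurons, at 98.4 and 108 CPM against 72.8 and 67.7 CPM. A smaller class, Ntrk2 Colq NF-like, was gated within NF-like neurons on 5 markers of A-delta low-threshold mechanoreceptors, Ntrk2 and Colq among them. Ntrk2 was detected in 98.4% of its cells but Colq in only 10.7%. Of its 3 held-back markers, 2 were higher in it than in the other NF-like cells, so the A-delta identity is not settled. In this class Tfrc was at 193 and 187 CPM against 87.8 and 96.6 CPM, a difference of 1.01 ± 0.23 with an edgeR adjusted p of 0.0757. In NP3-like neurons it was nearly level, at 44.8 and 38.7 CPM against 41.8 and 48.1 CPM. Blvrb, a biliverdin reductase, was at 126 and 99.3 CPM against 93.0 and 82.1 CPM over all cells. Ftl1, the ferritin light chain, was at 5372 and 5457 CPM against 4975 and 4442 CPM. Mgst1, a microsomal glutathione transferase, was lower, at 7.503 and 8.25 CPM against 9.14 and 11.9 CPM. In all, 15 of the 25 measured genes were higher, with a median of 0.068, and none passed.

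Genes of lipid peroxidation and ferroptosis, a form of iron-dependent cell death, split almost evenly. Of 20 measured genes 11 were higher, with a median of 0.0075. Lpcat3, which builds polyunsaturated phospholipids, was at 18.8 and 17.5 CPM against 15.8 and 12.3 CPM. Acsl4, which activates the fatty acids for them, was at 59.5 and 60.4 CPM against 64.1 and 72.9 CPM, and Elovl2, which lengthens these fatty acids, was at 1.19 and 1.20 CPM against 2.35 and 1.66 CPM. So 2 of these 3 enzymes of the same lipids were lower and 1 was higher on the deficient diet, and none passed the test.

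The other metabolic lists had no called member. Cholesterol synthesis genes were higher for 15 of 32 (median -0.028). The targets of the sterol receptor LXR and of the nuclear receptor RORA were mostly lower, with 18 of 24 lower and 6 higher (median -0.11), and 9 of them had both deficient mice below both supplemented mice, where 17.1% of all genes had that order. Mylip, an LXR target that degrades lipoprotein receptors, was at 2.08 and 1.66 CPM against 3.15 and 2.46 CPM. Mitochondrially encoded genes were higher for 7 of 13 (median 0.063), and nuclear genes of the respiratory chain for 32 of 58 (median 0.021). mt-Nd3, a subunit of complex I, was at 134 and 128 CPM against 148 and 195 CPM, while mt-Co1, a subunit of complex IV, overlapped, at 5996 and 8229 CPM against 5828 and 6956 CPM. Mitochondrially encoded genes therefore did not share a direction. Cytosolic ribosomal protein genes were higher for 25 of 56 (median -0.0023).

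Immediate early genes, which neurons switch on with activity and with handling of the tissue, were mostly lower on the deficient diet. Of 26 measured genes 22 were lower, with a median of -0.22, and 8 had both deficient mice below both supplemented mice, where 17.1% of all genes had that order. Btg2, a growth-arrest gene, was at 28.3 and 29.9 CPM against 35.1 and 38.9 CPM, and Zfp36, which destabilises messenger RNA, at 18.5 and 14.4 CPM against 22.6 and 21.8 CPM. Fos was at 326 and 313 CPM against 320 and 425 CPM and overlapped. No gene of the list was called, and 4 had an unadjusted p under 0.05. Without mouse 657 the median was -0.11 with 18 of 26 lower, and without mouse 671 it was -0.13 with 18 of 26 lower. With only gated neurons kept it was -0.090. Among heat shock and unfolded protein genes 10 of 21 were higher (median -0.0091), with the chaperone Hspa1b at 13.0 and 10.6 CPM against 15.6 and 19.2 CPM and its relative Hspa8 at 1391 and 1609 CPM against 1294 and 1296 CPM.

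**Figure D4:**
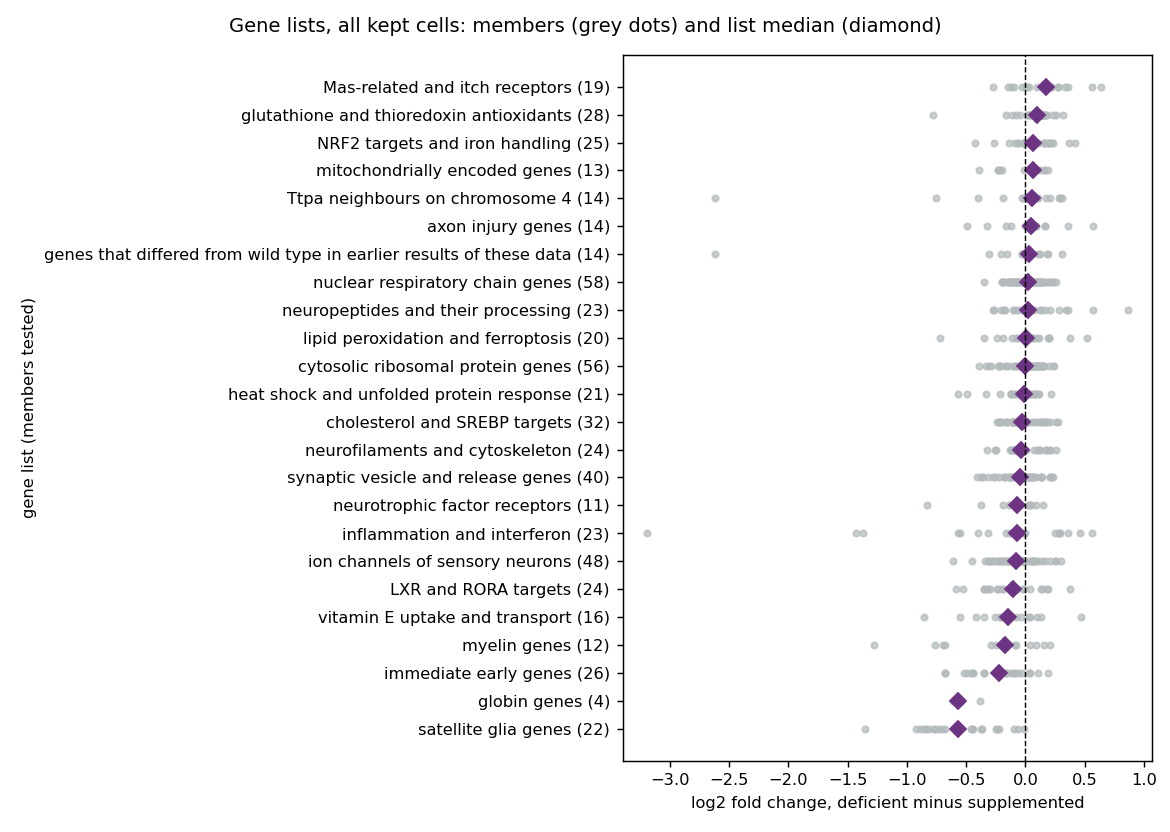
Log2 fold change between the diets (deficient minus supplemented, x axis) over all kept cells for 24 gene lists, with the number of measured members in brackets. Grey dots are genes, diamonds are list medians, and the dashed line is the median of all genes, -0.0042. The satellite glia and globin lists lie farthest to the left, both with a median of -0.57, and most other medians are near the dashed line.

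Lists of sensory neuron function had medians from -0.079 to 0.17, against -0.0042 for all genes. Ion channels were mostly lower, with 15 of 48 higher (median -0.079). Synaptic release genes were higher for 16 of 40 (median -0.048) and neuropeptides and their processing enzymes for 13 of 23 (median 0.020). Neurofilament and cytoskeletal genes were higher for 10 of 24 (median -0.041). Axon injury genes were higher for 9 of 14 (median 0.050) and neurotrophic factor receptors for 5 of 11 (median -0.073). Ntrk2, the receptor for brain-derived neurotrophic factor, was at 60.4 and 53.4 CPM against 63.9 and 83.0 CPM. Kcnip4, a subunit of A-type potassium channels, was at 183 and 171 CPM against 164 and 124 CPM over all cells and at 40.2 and 44.5 CPM against 30.2 and 24.5 CPM in NF-like neurons. Mas-related and itch receptors were higher for 13 of 19 (median 0.17). Osmr, the oncostatin M receptor of itch neurons, was at 75.8 and 54.3 CPM against 50.5 and 52.3 CPM, where mouse 654 alone was clearly apart. All 9 markers of NP3-like neurons were also higher over all cells, with a summed level of 873 and 543 CPM against 557 and 613 CPM. None of these genes was called, and whether the larger NP3-like share of mouse 654 set the itch receptor values was not tested.

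Genes that neighbour Ttpa on chromosome 4 were higher for 8 of 14 (median 0.056). One of them, Car8, separated a single mouse from its group. Car8, an inhibitor of inositol trisphosphate binding to its receptor (chr4:8143362-8239041), was at 1.11 and 1.66 CPM in the deficient mice and at 16.8 and 1.35 CPM in the supplemented mice, against 37.2 and 23.8 CPM in the wild type mice. Mouse 670 held 208 of its UMIs in 179 cells, while its diet partner 671 held 22 UMIs. The difference was -2.61 ± 0.84 (edgeR adjusted p 0.9998). It was 0.060 without mouse 670, and without mouse 671 it passed, at -3.56 with an edgeR adjusted p of 0.00859. Without the filter on low counts it also passed, at -2.60 (2.03e-22). In PEP-like neurons Car8 was at 0.785 and 0 CPM against 51.0 and 1.33 CPM (0.200), and it passed there in 3 of the 16 other fits. Over all cells mouse 670 therefore lay between the other 3 Ttpa-/- mice and the wild type mice. Among 14 genes that differed from the wild type in earlier results of these data, 8 were higher on the deficient diet (median 0.029). Wdfy1, another of them, overlapped between the diets, at 36.0 and 66.3 CPM against 36.5 and 46.4 CPM.

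Inflammatory genes were higher for 7 of 23 (median -0.074). Ccl4, a chemokine of macrophages and microglia, showed the largest difference of any gene tested, in few counts. It had 27 and 1 UMIs in the deficient mice and 147 and 92 in the supplemented mice, with 32 and 52 in the wild type mice. Its difference was -3.19 ± 0.67, with an edgeR adjusted p of 0.9998, and it passed without mouse 654, at -7.05 (0.00119), and without the filter on low counts, at -3.19 (5.19e-23). Macrophage-like barcodes numbered 12 and 0 in the deficient and 17 and 4 in the supplemented mice, and held 4, 24 and 4 of the Ccl4 UMIs of mice 654, 670 and 671. Ccl2, another chemokine, lay the other way, at 28.8 and 23.9 CPM against 21.8 and 19.3 CPM. Myelin genes were higher for 4 of 12 (median -0.17). Globin genes, a sign of red blood cells, were lower for 4 of 4 (median -0.57). Hba-a1 was at 28.2 and 12.0 CPM against 51.0 and 9.58 CPM, and without mouse 670 its difference was 1.05, so its direction rested on that mouse.

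In the larger neuron classes other than NP1-like, no gene was called by edgeR. The genes tested and those with an unadjusted p under 0.05 were 10560 and 345 in NF-like, 9738 and 287 in PEP-like, 7157 and 229 in NP2-like, 7560 and 206 in NP3-like and 9693 and 216 in TH-like neurons. By chance 528, 487, 358, 378 and 485 genes would be expected under that unadjusted p in these classes, in the same order. DESeq2 and limma-voom called 0 genes in each of these 5 classes. The percentage of genes called was 0 in each.

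Only some of the genes with the smallest p differed from class to class. Clec2l was among them in PEP-like and TH-like neurons, at -1.15 and -1.03 (edgeR adjusted p 0.865 and 0.9999). Its difference ranged from -1.60 to -0.28 and from -1.51 to -0.21 over the other fits. Car8 recurred in PEP-like and NP3-like neurons, and Fabp7 and Apoe in NP1-like and NP2-like neurons. Tfrc recurred in NF-like and Ntrk2 Colq NF-like neurons. In NF-like neurons, Ttc5, a cofactor of the p53 pathway, was at 15.2 and 13.4 CPM against 27.4 and 25.7 CPM, a difference of -0.91 ± 0.25. In PEP-like nociceptors, Ifit1, an interferon-induced gene, was at 137 and 134 CPM against 85.3 and 77.2 CPM, a difference of 0.74 ± 0.17 with an edgeR adjusted p of 0.426. The replicates of each diet lay close together there, and in NP1-like neurons Ifit1 overlapped, at 89.7 and 114 CPM against 81.6 and 119 CPM. Slbp, which binds histone messenger RNA, was at 45.5 and 47.6 CPM against 68.6 and 87.1 CPM in PEP-like nociceptors. In NP1-like neurons, Cartpt, a neuropeptide precursor, was at 32.0 and 29.0 CPM against 18.2 and 15.0 CPM, a difference of 0.87 ± 0.21. Over all cells Cartpt was level, with a difference of -0.01 ± 0.19. In NP2-like neurons, Mgst3, a microsomal glutathione transferase, was at 27.5 and 8.89 CPM against 55.7 and 35.6 CPM, a difference of -1.54 ± 0.42, which passed without mouse 654 (edgeR adjusted p 0.00873) or wild type mouse 699 (0.0473).

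In NP3-like itch neurons, 3 of the 4 genes with the smallest p were higher on the deficient diet. Plaur, the urokinase receptor, was at 60.8 and 50.1 CPM against 25.4 and 24.6 CPM, with 35.7 and 30.1 CPM in the wild type mice. Its difference was 1.16 ± 0.28, with an edgeR adjusted p of 0.665. Ifitm1, an interferon-induced membrane protein, was at 124 and 44.4 CPM against 35.8 and 29.1 CPM, and wild type mouse 698 was nearly as high as mouse 654, at 103 CPM. Mtus2, a microtubule-associated protein, was at 31.1 and 45.6 CPM against 14.9 and 10.1 CPM. In TH-like neurons, Ano4, a member of the anoctamin family, was at 14.8 and 18.0 CPM against 28.2 and 29.6 CPM, and Ndufs1, a subunit of complex I, at 35.4 and 31.3 CPM against 19.8 and 20.4 CPM. None of these 5 genes passed or overlapped between the diets. Of all genes, 15.4% in NP3-like and 14.1% in TH-like neurons had both deficient mice above, and 15.5% in TH-like neurons had both below. Ifitm1 passed in 6 of the 17 other fits: with sex as a term (edgeR adjusted p 0.0169), with a term for the deeper library of each group (0.0207), without mouse 657 (0.00340), without wild type mouse 698 (0.00357) or 699 (0.00368) and without the filter on low counts (0.000338). Mtus2 passed without that filter (0.0353). The Ifitm1 difference was 1.45 in the main fit and ranged from 0.46 to 1.94 over the 17 other fits. The fourth gene was Car8, which was lower (-4.30, adjusted p 0.665) and passed in 6 of the 16 other fits. Its difference ranged from -7.35 to -0.26 over those 16 fits. In the fit against all other gated neurons, its NP3-like level was 0 and 2.24 CPM in the deficient mice. It was 44.8 CPM in supplemented mouse 670 and 1.09 CPM in supplemented mouse 671. The groups therefore overlapped, and mouse 670 alone was apart.

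The 2 groups of NF-like neurons split further by markers gave 3 calls, and each rested on 1 cell or a few cells of mouse 657. In Pvalb-expressing NF-like neurons, which include proprioceptors, S100a16 was the only call among 7297 genes (0.0137%). S100a16, a calcium-binding protein, had 7 and 47 UMIs in the deficient mice, 0 and 3 in the supplemented mice and 5 and 4 in the wild type mice. Of the 47 UMIs of mouse 657, 44 lay in 1 cell, and only 3 of its 119 cells had any. It passed with an edgeR adjusted p of 2.98e-05, and without mouse 657 that p was 0.995. With the stricter gate the UMIs were 4 and 3 against 0 and 3.

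In the Ntrk2 Colq NF-like neurons, Cd9 and Calca were called among 7371 genes (0.0271%). Cd9, a tetraspanin, had 7 and 99 UMIs in the deficient mice against 1 and 19 in the supplemented mice, with 39 and 28 in the wild type mice. A single cell of mouse 657 held 64 of them. Calca, the precursor of the peptide CGRP and a gate marker of PEP-like nociceptors, had 5 and 118 UMIs against 2 and 19, with 39 and 51 in the wild type mice. A single cell of mouse 657 held 43 of these, and mice 654 and 671 put the groups in overlap. Cd9 passed with an edgeR adjusted p of 0.00205 and Calca with 0.000717. With the stricter gate Cd9 had 5 and 4 UMIs against 0 and 19, and Calca 3 and 4 against 2 and 19, so both differences turned, to -0.59 and -1.12. DESeq2 called none of the 3 genes, and limma-voom called S100a16 (adjusted p 0.0224) but neither Cd9 nor Calca (0.597 for both). Whether the single cells behind these calls were doublets was not tested.

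**Figure D5:**
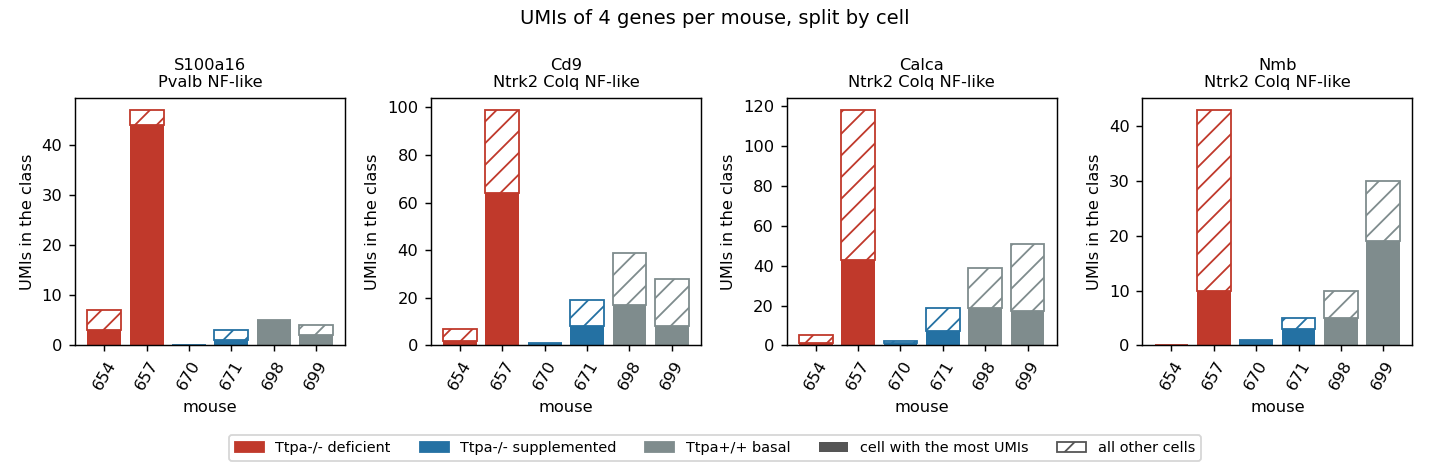
UMIs of S100a16 in Pvalb NF-like neurons and of Cd9, Calca and Nmb in Ntrk2 Colq NF-like neurons for each mouse, with the cell that held the most UMIs filled and all other cells hatched. Red bars are the deficient mice, blue the supplemented mice and grey the wild type mice. Mouse 657 has the tallest bar in each panel, and 1 cell holds 44 of its 47 S100a16 UMIs and 64 of its 99 Cd9 UMIs.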

How the data were processed

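Single-cell suspensions had been made into 3' v2 droplet libraries of 1 mouse each, per the labels' protocols. Per the submitters' processing notes, bcl2fastq 2.17.1.14, Cell Ranger 2.0.1, Seurat 2.3.0 and limma 3.32.10 were used, on mm10. The authors deposited 1 table of raw UMI counts for 27998 genes, 8608 of them without a count. The selection of its cells is not given in the sources used. A cell was kept if it had at least 500 genes and no more than 20% of its UMIs from mitochondrial genes. Doublets were scored with scrublet in scanpy 1.11.5. Its automatic threshold marked 45 cells (0.208%), so the top scores were removed instead, at 0.8% per 1000 cells of a library (634 cells, 2.927%).

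Counts were summed per mouse over all kept cells and over each class of 20 or more cells per mouse. The class of a cell was its highest mean marker z-score, with a lead of 0.25 and 2 detected markers. This scoring was set after the data were seen. edgeR 4.0.16 (R 4.3.3; TMM, filterByExpr, quasi-likelihood test) fitted 1 mean per group over all 6 mice, with Benjamini-Hochberg adjustment over all genes and a threshold of 0.05. Differences between classes were tested as the class by diet term. Shares were compared with two-sided exact permutation tests and Clopper-Pearson intervals. DESeq2 1.42.0 and limma-voom (limma 3.58.1) were among the alternatives. The edgeR fit was also run on counts simulated with 1 spread for all genes. Of 50 genes changed 1.5-fold it recovered 17 over all cells, 31 in NP1-like and 3 in NP2-like cells. At 2-fold it recovered 49, 47 and 32, with 7, 7 and 4 false calls in the 3 simulations. Differences of 1.5-fold could therefore be missed. Coordinates are from GENCODE on mm10.

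Genes were named by rule: the passing genes, or else those of smallest p with an average log2 CPM of 4 or more, 10 per direction over all cells and 4 per class, and up to 2 per direction in each list. Other named genes (Sox10, Glul, Scarb1, Ttpal, Prdx2, Gpx4, Ftl1, Fos, Xist and Ddx3y) were chosen after their values were seen, or followed from another fit. Some genes that the rule names are not reported here by name, though list counts include them. The comparison, gene lists and marker sets were chosen with earlier results of these data known.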

Additional observations from a re-analysis of the deposited data

Results flagged for a closer look

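The diet difference of 4 genes in 1 class of NF-like neurons differed from that in all other gated neurons of the same mice, by edgeR's test of the class by diet term. In Pvalb NF-like neurons, S100a16 differed by 4.41 ± 0.58 on the log2 scale (adjusted p 4.84e-10). In Ntrk2 Colq NF-like neurons, Cd9 differed by 2.41 ± 0.32 (adjusted p 5.01e-10), Calca by 2.35 ± 0.32 (adjusted p 5.01e-10) and Nmb, the precursor of neuromedin B, by 2.78 ± 0.52 (adjusted p 0.000288). Nmb had 0 and 43 UMIs in the deficient mice against 1 and 5 in the supplemented mice. In all 4 genes mouse 657 held most of the UMIs that the 4 Ttpa-/- mice had in the class. The test was not run without mouse 657. In the other 6 neuron classes edgeR called 0 genes by this test, with 346 to 474 genes at an unadjusted p under 0.05 in each.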

How the results depend on the processing

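No paired analysis was possible because the replicate numbers in the labels are mouse numbers and no groups share one. Each diet group held 1 female and 1 male and 1 shallower and 1 deeper library, and fits with either as a term are given below. With 1 mouse left out of the fit at a time, the number of called genes ranged from 0 to 1 over all cells, 0 to 8 in NF-like, 0 to 3 in PEP-like, 0 to 5 in NP1-like, 0 to 5 in NP2-like, 0 to 2 in NP3-like, 0 to 0 in TH-like, 0 to 7 in Pvalb NF-like, 1 to 7 in Ntrk2 Colq NF-like and 0 to 5 in satellite-glia-like cells. The lone mouse of a group was then assumed to vary like the others. The highest counts came without mouse 654 in NF-like (8), PEP-like (3), both smaller NF classes (7 each) and satellite-glia-like cells (5), without mouse 670 in NP1-like (5) and without wild type mouse 699 in NP2-like cells (5). With a Ttpa-/- mouse left out its diet group held 1 sex, so sex and diet cannot be told apart there. Of the calls without mouse 654, Xist or Ddx3y made 2 of 8 in NF-like, 2 of 7 in Pvalb NF-like, 1 of 7 in Ntrk2 Colq NF-like and 2 of 5 in satellite-glia-like cells. The 1 gene over all cells was Ccl4 without mouse 654 and Car8 without mouse 671. Without the filter on low counts, 26 genes were called over all cells, 1 in NF-like, 4 in PEP-like, 0 in NP1-like, 4 in NP3-like, 2 in TH-like, 3 in Pvalb NF-like and 1 in satellite-glia-like cells. DESeq2 called 0 genes in NP1-like, Pvalb NF-like and Ntrk2 Colq NF-like cells. limma-voom called 3 genes in Pvalb NF-like and 0 in Ntrk2 Colq NF-like cells. Sex as a term gave 3 calls in NP1-like and 2 in NP3-like cells, and a term for the deeper library of each group gave 1 in PEP-like, 3 in NP3-like and 3 in TH-like cells, Xist among the last. With only the Ttpa-/- mice, 0 genes were called in NP1-like cells. Thinned sums and the stricter gate left 0 calls in NP1-like and in Pvalb NF-like cells, and the stricter gate left 0 in Ntrk2 Colq NF-like and gave 1 in satellite-glia-like cells. The NF-like difference was -5.84 percentage points among gated neurons, against -2.29 among all kept cells. The share of satellite-glia-like cells differed by -4.88 to -1.39 points with 1 Ttpa-/- mouse left out, an alternative chosen after seeing the data, as was the use of gated neurons only. Except where fewer genes, cells or mice entered by construction, the cause was not tested.

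Single-gene results reversed their direction in 23 cases. Over all cells with 1 mouse left out, the log2 differences ranged from -0.73 to 0.043 for Slc40a1, -0.043 to 0.68 for Nts, -0.17 to 1.06 for Nppb, -0.30 to 0.41 for Mal, -0.092 to 0.37 for mt-Co1, -0.069 to 0.37 for mt-Atp6, -0.027 to 0.23 for Socs3, -0.46 to 0.16 for S1pr1, -0.21 to 0.68 for Wdfy1, -1.26 to 0.83 for Hba-a2, -1.36 to 1.05 for Hba-a1, -3.56 to 0.060 for Car8, -0.31 to 0.0029 for Sox11 and -0.63 to 0.10 for Abhd2. In Ntrk2 Colq NF-like cells they ranged from -0.071 to 4.06 for Calca and from -4.92 to 3.56 for Nmb, and with the stricter gate Cd9 (-0.59) and Calca (-1.12) reversed. With gated neurons only S1pr1 (0.047) and Hba-a1 (0.33) reversed. In the remaining fits the direction held, with 2213 single-gene values on the same side of the threshold, 54 newly passing and 14 no longer passing. Mice 654 and 670 had fewer UMIs per cell, and what this meant for precision in each class was not compared.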
